A study of Mus musculus with 5 samples.

Results

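The mitochondrial carriers of solute carrier family 25 (SLC25) were described in mouse liver on 5 microarrays. Members were all genes whose symbol on the platform was Slc25a followed by a number. Each gene was represented by its brightest probe, the one with the highest 5-array mean. This gave 37 genes on 43 probes, of 16637 named genes and 29922 probes on the array. The choice used names and brightness and no comparison between groups.

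The series asked how nordihydroguaiaretic acid (NDGA), a lignan of the creosote bush and a lipoxygenase inhibitor, in the diet relates to liver gene expression in WT and ob/ob mice. The wild-type (WT) groups, on the C57BL/6 background, ate chow, a high-fat diet (HFD), or this diet with NDGA at 2.5 g per kg of food. Mice of the ob/ob genotype, which lack leptin and which the labels also place on the C57BL/6 background, ate chow or chow with NDGA at 2.5 g per kg of food. All diets lasted 16 weeks, and the animals' age is not stated in the sources used here. Each of the 5 groups had 1 array, made from the RNA of 3 animals per the design text, with no statement on pooling. No gene therefore has a replicate, a test or an error between mice, and every difference is between 2 arrays. These are bulk liver samples, so fewer cells of a type and less RNA per cell cannot be told apart.

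SLC25 proteins sit mostly in the inner mitochondrial membrane and exchange metabolites that cannot cross it on their own: adenine nucleotides, phosphate, carboxylates, acylcarnitines, amino acids, cofactors, iron and glutathione. Liver depends on them for ATP export, for fatty acid oxidation, for the urea cycle and for the malate-aspartate shuttle that moves reducing equivalents into mitochondria. A few relatives lie elsewhere, such as SLC25A17 in peroxisomes and SLC25A46 in the outer mitochondrial membrane. Several members serve tissues other than liver: Slc25a31 encodes the ADP/ATP carrier of testis, and Slc25a4 that of heart and skeletal muscle.

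Intensities below are the deposited linear values. Differences are log2 differences of quantile-normalized intensities after an offset of 50 was added, a scale that understates the change of dim probes. A gene was called expressed when its mean normalized log2 intensity over the 5 arrays reached the median of all genes, which 8319 genes and 23 of the 37 carriers did. The other 14 carriers were dim. The carrier nearest below the threshold was Slc25a29 and the nearest above was Slc25a35, with geometric mean intensities of 75.3 and 107.9 around the threshold of 91.8. A log2 difference of at least 1 (2-fold) was counted. Where genes had 2 bright probes, the SD of a difference per probe was 0.35 for HFD, 0.33 for NDGA on HFD, 0.28 for ob/ob and 0.46 for NDGA in ob/ob over 922 genes, which is the only measure of error these arrays give. Intensities of different probes are not set against each other, because probes differ in how strongly they bind.

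The arrays were of unequal brightness, and the choice of scaling moves some results. The median deposited intensity was 38.1 to 47.0 on 4 arrays and 71.0 on the array of ob/ob with NDGA. Of the 23 expressed carriers, 21 had their highest deposited intensity on that array, against 9 after normalization. Without normalization the median difference of all expressed genes was 0.67 for NDGA in ob/ob and -0.15 for ob/ob against WT. Differences are therefore also given relative to that median where scaling matters. Of 689 olfactory receptor genes, foreign to liver, 163 passed the brightness threshold. Passing it is therefore a matter of probe brightness and does not by itself show that a gene is active in liver. Their medians were -0.28 for HFD, 0.46 for NDGA on HFD, 0.05 for ob/ob and -0.40 for NDGA in ob/ob over these 163 genes. Of 9 hepatocyte markers, 8 were expressed, while Tat did not exceed 56.8 on any array. Their summed deposited intensity was 203437 to 288830. Albumin alone read at least 62274, close to where values pile up above 65000, so the sum can show little change. Fgb was at -1.31 for HFD, and the other expressed hepatocyte markers stayed under 2-fold in all 4 comparisons.

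Within ob/ob mice, NDGA in chow against chow alone gave the largest carrier differences. The phosphate carrier Slc25a3, the peroxisomal cofactor carrier Slc25a17 and the carnitine-acylcarnitine carrier Slc25a20 were at least 2-fold higher with NDGA. The aspartate-glutamate carrier Slc25a13, the ornithine carrier Slc25a15 and the oxoglutarate-malate carrier Slc25a11 came just under 2-fold. No expressed carrier was at least 2-fold lower. Thus 3 of 23 expressed carriers (13%) were at least 2-fold higher, where 6.54% of all expressed genes were, and 0 were at least 2-fold lower, where 0.493% were. After quantile normalization the family did not share a direction: its median was -0.01, that of all expressed genes was -0.10, and 11 carriers were above 0 and 12 below, where 43.0% of all expressed genes were above 0. Both counts depend on the scaling: without normalization 23 carriers were above 0 and 11 at least 2-fold higher, and with median centring 19 and 8. Of all 8319 expressed genes, 2622 were at least 2-fold higher without normalization and 1215 with median centring, against 544 in the main setting.

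Slc25a3 supplies the phosphate from which mitochondria make ATP. Its probe read 1059 on WT chow, 1671 on WT HFD, 1086 on WT HFD with NDGA, 738 on ob/ob chow and 4773 with NDGA in ob/ob. It was highest with NDGA in ob/ob and lowest in ob/ob on chow, and no array came near the top value. The difference between the ob/ob arrays was 1.69, or 3.23-fold, which ranked 40 from the top among 8319 expressed genes. Relative to the all-gene median it lay between 1.79 and 1.94 under 4 ways of scaling the arrays.

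Slc25a17 carries coenzyme A, FAD and other nucleotide cofactors across the peroxisomal membrane. Its probe read 654 on WT chow, 864 on WT HFD, 571 on WT HFD with NDGA, 392 on ob/ob chow and 1899 with NDGA in ob/ob. The order of the arrays was that of Slc25a3 except that WT chow stood above WT HFD with NDGA. Its difference with NDGA in ob/ob was 1.28, or 2.43-fold.

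Slc25a20 brings acylcarnitines into the matrix, the step between the carnitine palmitoyltransferases CPT1 and CPT2. Its probe read 153 on WT chow, 164 on WT HFD, 184 on WT HFD with NDGA, 105 on ob/ob chow and 456 with NDGA in ob/ob. The 3 WT arrays lay close together, with ob/ob chow below and ob/ob with NDGA above them. The difference with NDGA in ob/ob was 1.03, or 2.05-fold, which exceeds the values of Slc25a13, Slc25a15 and Slc25a11 by less than the per-probe SD of 0.46.

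Slc25a13, which exports aspartate in exchange for glutamate and is the liver form of this carrier, read 1219, 1990, 1689, 831 and 3186 in the same array order, WT chow to ob/ob with NDGA. Slc25a15, which brings ornithine in and takes citrulline out during the urea cycle, read 3430, 4668, 3163, 2201 and 8440. Slc25a11, which exchanges oxoglutarate for malate, read 191, 193, 209, 139 and 530. All of them were lowest in ob/ob on chow and highest in ob/ob with NDGA. Their differences with NDGA in ob/ob were 0.97, 0.90 and 0.89, and with the loess scaling they were 1.13, 1.09 and 1.00. The ob/ob chow array is the baseline of these differences and also enters ob/ob against WT, with opposite sign.

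Other carriers did not share this pattern. Slc25a23, which exchanges ATP-Mg for phosphate under control of calcium, had the lowest difference with NDGA in ob/ob at -0.84, or 1.79-fold lower, and read 4929, 3798, 3919, 3872 and 4350 on the 5 arrays. Its deposited intensity was higher with NDGA than without in ob/ob, so the sign depends on the scaling: the difference was 0.17 without normalization and -0.29 with median centring. Slc25a37 (-0.45) and Slc25a33 (-0.41), which encode mitoferrin-1, an iron importer, and a pyrimidine nucleotide carrier, were likewise at 0.49 and 0.51 without normalization. Relative to the all-gene median, Slc25a23 lay between -0.74 and -0.50 under the 4 scalings.

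**Figure D1:**
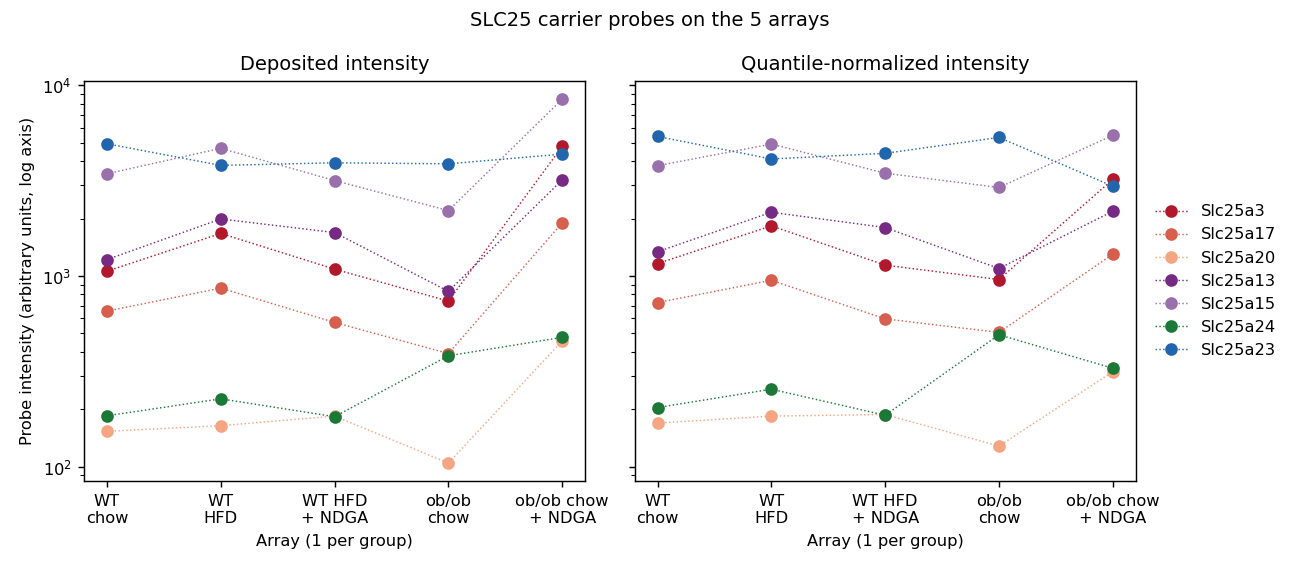
Intensity of 7 carrier probes on the 5 arrays, deposited on the left and quantile-normalized on the right, on a log axis in arbitrary units; each point is 1 array and dotted lines only join points of a gene. Slc25a3 goes from 738 to 4773 in deposited intensity between the ob/ob arrays, Slc25a20 from 105 to 456, and Slc25a23 from 3872 to 4350.

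**Figure D2:**
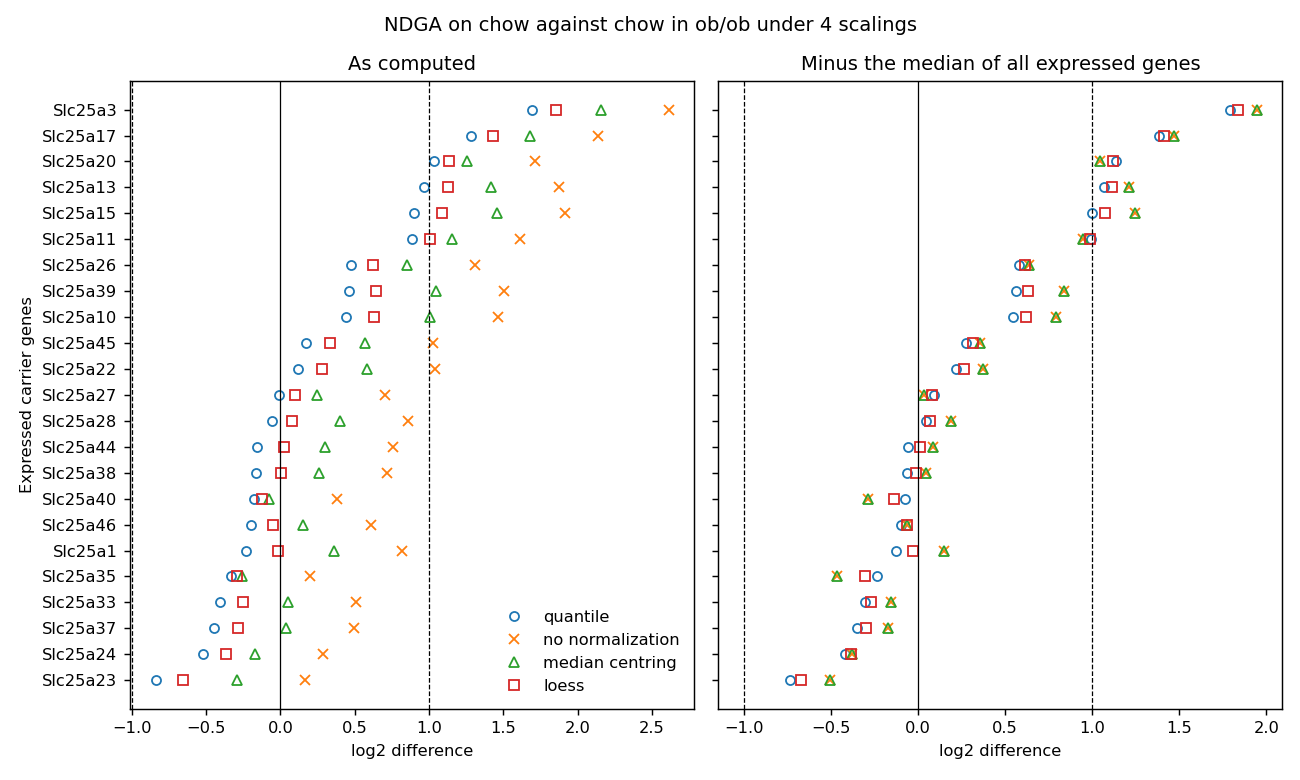
Log2 difference of the 23 expressed carriers for NDGA in ob/ob under 4 scalings, as computed on the left and minus the median of all expressed genes on the right; dashed lines mark 2-fold. Without normalization all 23 carriers lie above 0, and after subtraction of the median the 4 scalings lie closer together, with Slc25a3 between 1.79 and 1.94.

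The promoters of the 4 expressed carriers that passed 2-fold in any comparison are shown, because these carriers had the largest differences: Slc25a3, Slc25a17 and Slc25a20 with NDGA in ob/ob and Slc25a24 in ob/ob against WT. The sequences are the 250 bases before the annotated start of each gene, from RefSeq on build GRCm38.p6, written 5′ to 3′ on the gene's strand. Capitals mark exact matches on either strand to CCAAT, to the NRF1 site, to the ETS and GABP site CCGGAAG or to the nuclear receptor half-site AGGTCA. These letter strings do not overlap in the windows shown.
Slc25a3 (chr10:91123968-91124217, minus strand): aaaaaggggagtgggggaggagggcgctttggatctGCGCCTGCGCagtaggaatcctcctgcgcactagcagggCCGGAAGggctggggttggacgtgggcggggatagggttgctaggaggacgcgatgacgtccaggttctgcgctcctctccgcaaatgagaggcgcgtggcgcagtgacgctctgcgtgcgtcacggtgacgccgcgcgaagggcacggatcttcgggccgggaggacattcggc
Slc25a17 (chr15:81360766-81361015, minus strand): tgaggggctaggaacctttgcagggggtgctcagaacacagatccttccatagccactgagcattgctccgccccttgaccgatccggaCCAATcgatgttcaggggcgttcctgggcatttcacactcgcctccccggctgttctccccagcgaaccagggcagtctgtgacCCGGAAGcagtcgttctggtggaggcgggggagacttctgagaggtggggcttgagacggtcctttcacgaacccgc
Slc25a20 (chr9:108661886-108662135, plus strand): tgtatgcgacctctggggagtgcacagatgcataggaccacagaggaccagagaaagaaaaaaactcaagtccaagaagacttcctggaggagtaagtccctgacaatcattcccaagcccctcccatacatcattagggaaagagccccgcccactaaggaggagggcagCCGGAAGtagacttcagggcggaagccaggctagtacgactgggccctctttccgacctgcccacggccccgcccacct
Slc25a24 (chr3:109122899-109123148, plus strand): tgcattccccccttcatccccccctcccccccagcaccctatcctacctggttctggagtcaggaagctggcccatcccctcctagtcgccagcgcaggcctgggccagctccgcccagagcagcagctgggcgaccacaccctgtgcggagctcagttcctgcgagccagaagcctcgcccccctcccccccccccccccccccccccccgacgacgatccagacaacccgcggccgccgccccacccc
The string CCGGAAG, bound by ETS family factors such as GABP, a regulator of many mitochondrial genes, stood in the windows of Slc25a3, Slc25a17 and Slc25a20. It was in neither that of Slc25a24 nor those of Slc25a11, Slc25a13 and Slc25a15, whose differences with NDGA in ob/ob came just under 2-fold. It began 175, 77 and 79 bases before the start of Slc25a3, Slc25a17 and Slc25a20, in each case on the gene's strand. It stood in 8.98% of 21263 promoter windows of protein-coding genes and in 5 of 37 windows that matched 28 carrier genes; the others were those of the dim Slc25a4 and of Slc25a38, which was at -0.16 with NDGA in ob/ob. The GC box GGGCGG was in all 4 windows shown and in 42.6% of all windows. The NRF1 string was in the windows of Slc25a3 and Slc25a31 (5.18% of all windows). AGGTCA, which the ERR string TCAAGGTCA contains, was in none of the 4 windows shown, in those of Slc25a39 and Slc25a45 among carriers, and in 12.8% of all windows. PPAR-alpha dimers bind a direct repeat of that half-site with a spacing of 1 base. It was searched in the looser form AGGNCA, N being any base. This repeat was in 0 of the 37 carrier windows and in 0.320% of all windows, as was TCAAGGTCA. These are matches of letters in a short window, and nothing was measured at these sites.

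The chow-fed ob/ob and WT arrays address carrier expression under leptin deficiency. The ob/ob chow array is also the baseline for NDGA in ob/ob. A high or low reading on it therefore enters both comparisons with opposite sign, so they are not independent. Slc25a24, a calcium-regulated ATP-Mg and phosphate carrier, was 2.13-fold higher in ob/ob (log2 difference 1.09). Its probe read 185 on WT chow, 227 on WT HFD, 183 on WT HFD with NDGA, 382 on ob/ob chow and 477 with NDGA in ob/ob. The ob/ob arrays both lay above all 3 WT arrays, in deposited and in normalized intensity. Without normalization the difference was 0.88 and with median centring 0.89, under 2-fold, while relative to the all-gene median it was 1.02 to 1.06 under the 4 scalings. It was the 1 of 23 expressed carriers at least 2-fold higher, where 1.03% of all expressed genes were, and 0 were at least 2-fold lower, where 1.76% were.

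At the other end stood Slc25a45, a carrier whose substrate is less settled, at -0.61, with 828 on WT chow, 745 on WT HFD, 730 on WT HFD with NDGA, 451 on ob/ob chow and 971 with NDGA in ob/ob. Slc25a17 (-0.48), Slc25a15 (-0.37) and Slc25a22, a glutamate carrier (-0.34), were also lower in ob/ob. The 5 expressed amino acid carriers were all below 0, from -0.37 to -0.10, and the 4 carriers of iron and glutathione all above, from 0.13 to 0.22. Without normalization Slc25a37 was at -0.09 and Slc25a39 at -0.21, so the direction of the iron and glutathione group depends on the scaling. The median of the 23 carriers was -0.10 and that of all expressed genes 0.03. The Kupffer cell and macrophage list, 7 of 7 markers expressed, had a median of 0.89 in this comparison, with deposited sums of 5395 on WT chow and 9087 on ob/ob chow. Its members went from 0.13 (Clec4f) to 1.32 (C1qb). The list's median was 0.81 for HFD, -1.07 for NDGA on HFD and 0.06 for NDGA in ob/ob. Slc25a24 was at 0.26, -0.37 and -0.52 in these 3 comparisons. Whether such cells contribute to the value of Slc25a24 was not tested.

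HFD against chow in WT compares the diets without NDGA, on 1 array each, and shares its chow array with the ob/ob comparison. No expressed carrier was 2-fold apart in either direction, against a background of 2.13% of all expressed genes higher and 1.29% lower. Slc25a13 (0.67) and Slc25a3 (0.64) were highest, with Slc25a17 and Slc25a15 both at 0.37 and Slc25a39, a carrier tied to glutathione import, at 0.34. Slc25a33 was lowest at -0.61, with 2286 on chow and 1471 on HFD, and Slc25a22 (-0.41) and Slc25a23 (-0.39) were next to Slc25a35 (-0.40) in the same direction. All 23 lay between the 5th and 95th percentiles of all expressed genes, which were -0.62 and 0.79. The median of the carriers was -0.01, as was that of all expressed genes.

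NDGA on HFD against HFD alone in WT shares its HFD array with the diet comparison, so a high or low reading on that array enters both with opposite sign. No expressed carrier was 2-fold apart, against a background of 0.829% of all expressed genes higher and 1.53% lower. Slc25a3 (-0.66), Slc25a17 (-0.63), Slc25a15 (-0.50) and Slc25a38, a glycine carrier needed for heme synthesis (-0.41), were lowest. Slc25a35 (0.57) and Slc25a40, another glutathione carrier (0.49), were highest, both on probes near the brightness threshold. Slc25a20 stood at 0.02 and Slc25a11 at -0.01. The carrier median was 0.08 and that of all expressed genes -0.04, and all 23 again lay between the 5th and 95th percentiles.

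**Figure D3:**
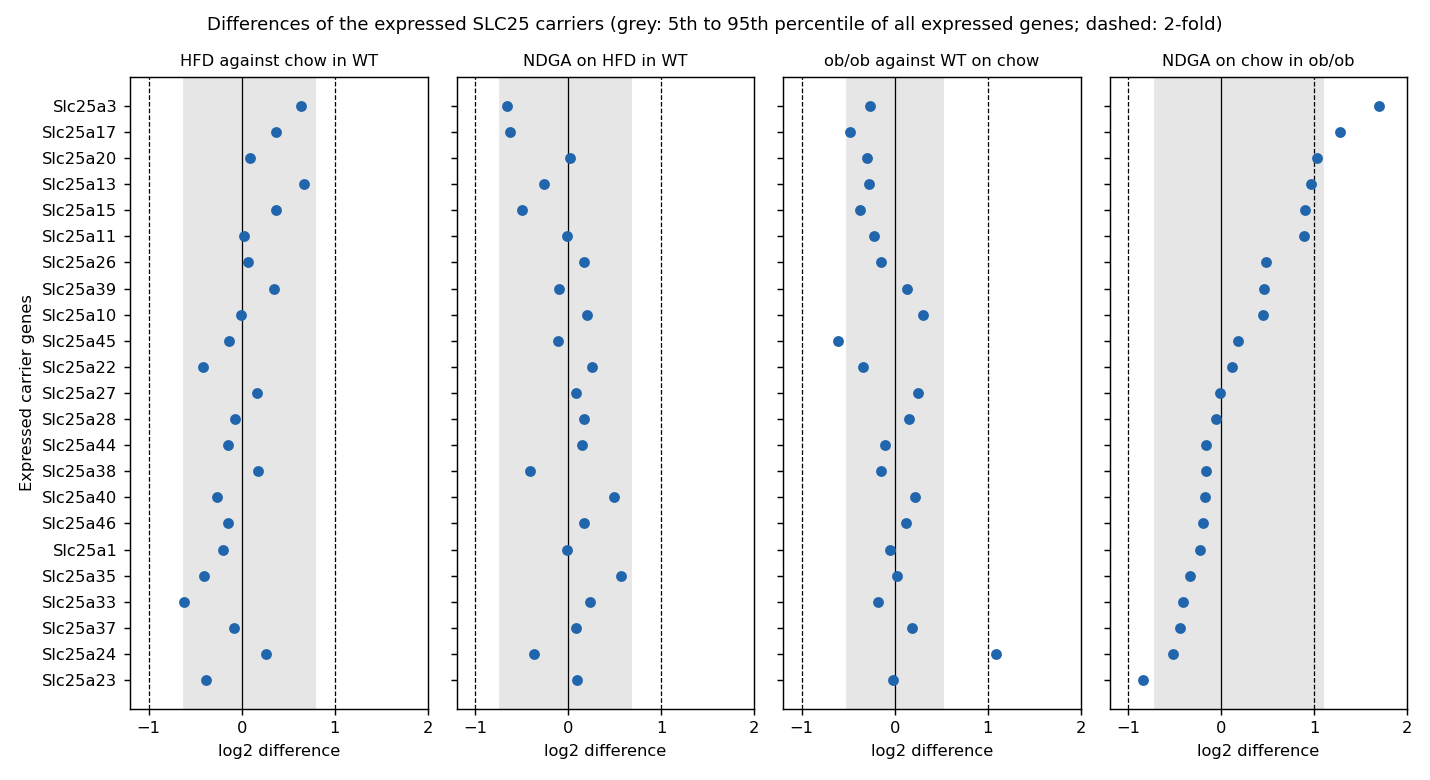
Log2 difference of each of the 23 expressed carriers (points) in the 4 comparisons, sorted by the difference for NDGA in ob/ob; the grey band is the 5th to 95th percentile of all expressed genes and dashed lines mark 2-fold. For NDGA in ob/ob, Slc25a3 and Slc25a17 lie above the band and Slc25a23 below it; for ob/ob against WT, Slc25a24 lies above and Slc25a45 below, while no carrier leaves it in the comparisons within WT.

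The NDGA comparisons in WT and in ob/ob share no array and can be set side by side. They differ both in genotype and in base diet, HFD in WT and chow in ob/ob. Genotype and diet therefore cannot be told apart where the comparisons disagree. Slc25a3 was at -0.66 in WT and 1.69 in ob/ob, Slc25a17 at -0.63 and 1.28, and Slc25a15 at -0.50 and 0.90. Slc25a20 was at 0.02 and 1.03. Slc25a10, the dicarboxylate carrier, was above 0 in both, at 0.20 and 0.44, and Slc25a24 below 0 in both, at -0.37 and -0.52. Of the 23 carriers, 7 had the same sign in both comparisons (30.4%), and of all expressed genes 25.8% did. Opposite signs were thus usual on these arrays: of the 544 genes at least 2-fold higher with NDGA in ob/ob, 500 were below 0 with NDGA in WT. The opposite signs of Slc25a3, Slc25a17 and Slc25a15 therefore stand on a background in which most genes had opposite signs of some size. Lower in WT and higher in ob/ob was the reading of 35.2% of all expressed genes and of 30.4% of the 23 carriers. Opposite signs with both differences beyond the per-probe SD were seen in 24.6% of all expressed genes.

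**Figure D4:**
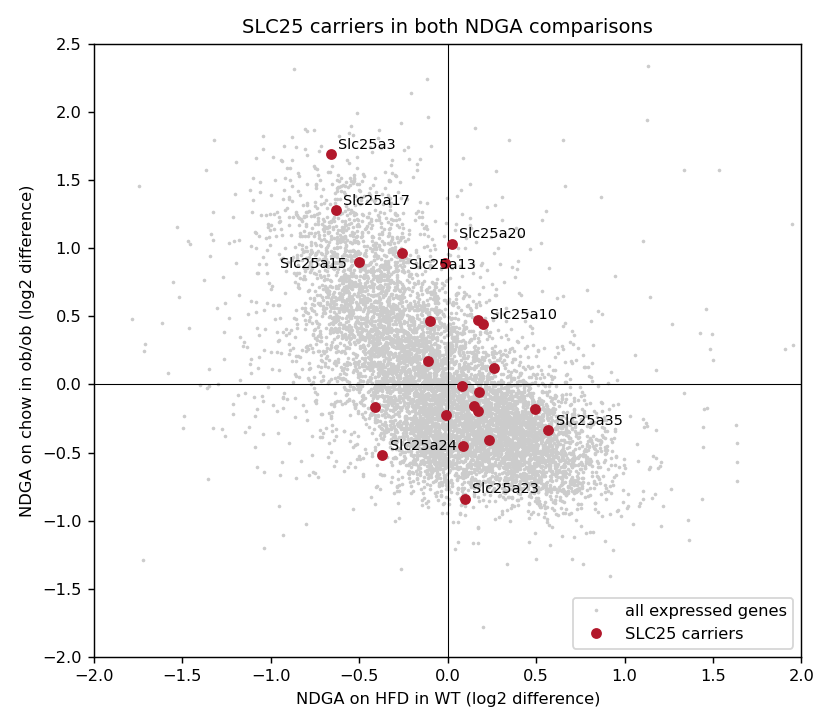
Log2 difference with NDGA in WT on HFD (horizontal) against that in ob/ob on chow (vertical), grey for all expressed genes and red for the 23 carriers; 27 genes lie outside the axes. The grey cloud runs from the upper left to the lower right, and Slc25a3 (-0.66, 1.69) and Slc25a17 (-0.63, 1.28) lie in its upper left.

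Grouped by substrate, the 4 expressed nucleotide and phosphate carriers were spread widest with NDGA in ob/ob, from -0.84 (Slc25a23) to 1.69 (Slc25a3), with Slc25a33 at -0.41 and Slc25a24 at -0.52. The cofactor carriers were above 0, Slc25a17 at 1.28 and Slc25a26, which imports S-adenosylmethionine, at 0.48. Of the 4 carboxylate and acylcarnitine carriers, Slc25a20 (1.03), Slc25a11 (0.89) and Slc25a10 (0.44) were above 0. Slc25a1, the citrate exporter that feeds lipid synthesis, was at -0.23, with 4456, 3918, 3790, 3410 and 6049 on the 5 arrays; it was at 0.82 without normalization and -0.01 after loess.

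Among the 5 expressed amino acid carriers, Slc25a13 (0.97) and Slc25a15 (0.90) stood apart from Slc25a22 (0.12), Slc25a38 (-0.16) and Slc25a44, a carrier of branched-chain amino acids (-0.16). The mitoferrins Slc25a28 (-0.05) and Slc25a37 (-0.45) and the glutathione carriers Slc25a39 (0.46) and Slc25a40 (-0.18) showed no common direction. The probe of Slc25a39 read 15910, 21182, 17526, 13724 and 39130 on the 5 arrays. Slc25a27, an uncoupling protein relative known mainly from brain, was at -0.01 on its brightest probe and at 0.12 on another, which did not exceed 6.69. Slc25a46 (-0.20), which acts in mitochondrial dynamics, and Slc25a35 (-0.33) and Slc25a45 (0.17) were within the per-probe SD of 0.46.

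**Figure D5:**
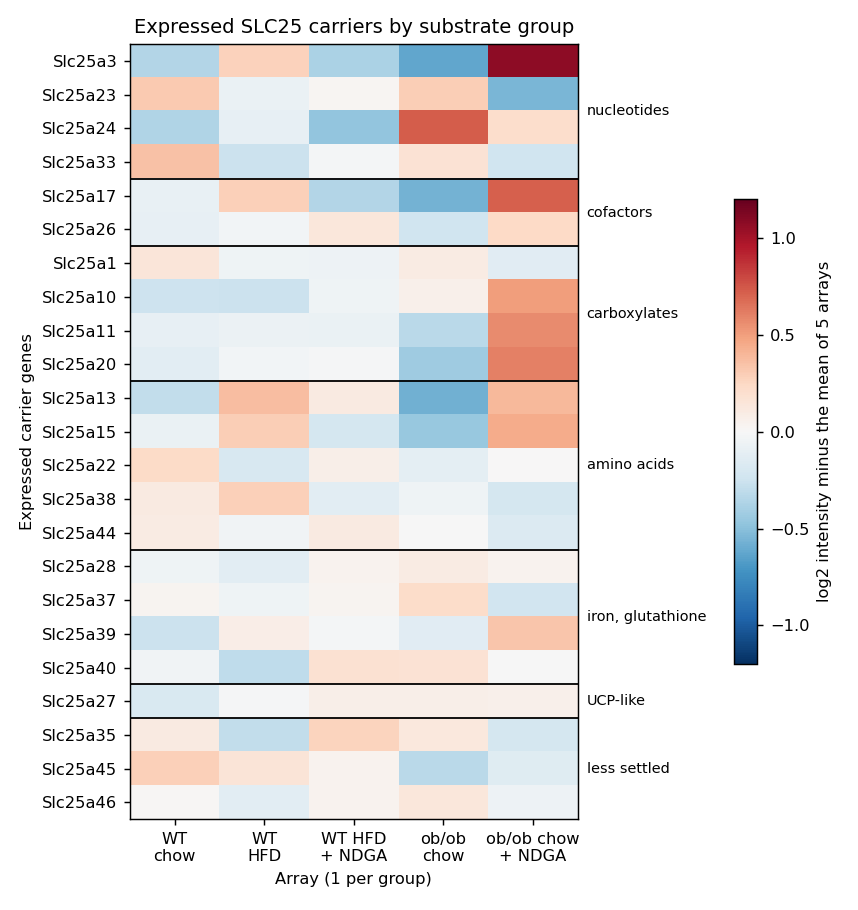
Log2 intensity of the 23 expressed carriers on each array minus the gene's mean over the 5 arrays, grouped by substrate; red is above and blue below that mean, after quantile normalization. Slc25a3, Slc25a17, Slc25a20 and Slc25a11 are bluest in ob/ob on chow and reddest in ob/ob with NDGA, whereas Slc25a28 and Slc25a27 hardly vary, with ranges of 0.23 and 0.25.

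The range over the 5 arrays had a median of 0.59 for the carriers and 0.61 for all expressed genes. It went from 0.23 for Slc25a28 to 1.69 for Slc25a3. After normalization 9 carriers were highest in ob/ob with NDGA, where 30.5% of all expressed genes were, and 8 were lowest in ob/ob on chow, where 14.5% were. No carrier probe was saturated, and none was 4-fold brighter on 1 array than on every other.

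The 14 dim carriers give little signal to compare. Slc25a4 was the brightest of those with a difference of note: it read 19.5 on WT chow, 86.2 on WT HFD, 65.3 on WT HFD with NDGA, 41.7 on ob/ob chow and 192 with NDGA in ob/ob. Its differences were 1.02, -0.34, 0.49 and 0.87 for HFD, NDGA on HFD, ob/ob and NDGA in ob/ob. It is the 1 dim carrier past 2-fold in the main setting. For HFD it was under 2-fold without normalization (0.97), with median centring (0.96) and after loess (0.97), and at 1.55 with an offset of 16. Slc25a25, a further ATP-Mg and phosphate carrier, read 29.9, 18.6, 19.6, 14.5 and 94.7, highest in ob/ob with NDGA (0.79). Slc25a30, an uncoupling protein relative, read 37.1, 56.8, 27.0, 15.4 and 77.2, with a difference of 0.59 for NDGA in ob/ob, while its other probe was at -0.21.

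Slc25a12, the aspartate-glutamate carrier of heart, muscle and brain, stayed between 31.5 and 67.1, and the glutamate carrier Slc25a18 between 46.5 and 74.8. The basic amino acid carrier Slc25a29 read 61.3 to 95.2 and the ornithine carrier relative Slc25a2 read 25.3 to 65.5. Slc25a31 did not exceed 8.54, and the oxodicarboxylate carrier Slc25a21 did not exceed 4.99. The remaining dim probes, Slc25a14, Slc25a16, Slc25a32, Slc25a36 and Slc25a41, read at most 26.7. Such readings give no level for these genes in liver, because a probe can be dim for its own reasons.

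Of the 37 carriers, 5 had more than 1 probe, and the probes did not always run together. The other probe of Slc25a35 gave 0.56 for HFD and -0.29 for NDGA on HFD, against -0.40 and 0.57 for the brightest, so no direction holds for that gene. The other probes of Slc25a40 did not exceed 25.6 and carry little signal. The 4 expressed carriers past 2-fold each rest on a single probe, as does the dim Slc25a4.

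Another 5 family genes lie on the platform under older symbols and were outside the naming rule. Slc25a47, a carrier expressed mainly in liver, read 570 on WT chow, 525 on WT HFD, 683 on WT HFD with NDGA, 610 on ob/ob chow and 987 with NDGA in ob/ob, with differences of -0.10, 0.27, 0.32 and -0.22 in the 4 comparisons. Slc25a48 was at -0.54, 0.34, -0.43 and 0.01, and Slc25a51, Slc25a53 and Slc25a54 were dim. Family members with other names were Ucp1 and Ucp3, the uncoupling proteins of brown fat and muscle, which did not exceed 7.67 and 17.6, and the outer membrane proteins Mtch1 and Mtch2, within 0.31 of 0 in all 4 comparisons.

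Other transporters of the mitochondrial membranes were read for comparison. Of 12 expressed genes of a list of 18, which held voltage-dependent anion channels, pyruvate carriers and sideroflexins, Sfxn1, a serine transporter, was the 1 at least 2-fold higher with NDGA in ob/ob (1.22), where 6.54% of all expressed genes were, and the list's median was 0.03. None was 2-fold apart in the other comparisons, in which the outer membrane channel Vdac3 was at 0.91 for HFD and 0.54 for ob/ob. Vdac1 was at -0.59 for HFD and 0.62 for NDGA on HFD, and the pyruvate carrier subunit Mpc1 was at 0.62 for NDGA on HFD. Of 5 expressed genes for the import of carriers into the inner membrane, Timm8b was the 1 at least 2-fold higher with NDGA in ob/ob (1.09), again beside 6.54% of all expressed genes. Tomm22 was at -0.81 and Tomm40 at -0.37 in the same comparison, and the list's median was 0.19. Tomm22 was also at -0.97 for HFD.

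Enzymes that make or use the carriers' substrates were read beside them. With NDGA in ob/ob, 7 of 23 expressed enzymes passed 2-fold upward and 0 downward, where 6.54% and 0.493% of all expressed genes did, and the median was 0.79. Cpt2, which acts after Slc25a20 (1.03), was at 1.18. Cps1, which starts the urea cycle that Slc25a15 (0.90) serves, was at 1.71, whereas Otc, which joins the imported ornithine to carbamoyl phosphate, was at -0.51. Got2 and Mdh2, the mitochondrial enzymes of the malate-aspartate shuttle, were at 1.52 and 1.53 beside Slc25a13 (0.97) and Slc25a11 (0.89). Acly, which cleaves exported citrate, was at 1.12 where Slc25a1 was at -0.23, and Coasy, which makes coenzyme A, was at 1.37 beside Slc25a17 (1.28). The list's medians were 0.23 for HFD, -0.15 for NDGA on HFD and 0.09 for ob/ob, with 1 gene in each past 2-fold: Alas1 (1.27), Acly (-1.09) and Oat (-1.02). Of all expressed genes, 2.13% were at least 2-fold higher for HFD. For NDGA on HFD 1.53% were at least 2-fold lower, and for ob/ob 1.76%.

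Markers of other cell types varied between the arrays. Of 15 skeletal muscle markers, 9 passed the brightness threshold, and their summed deposited intensity over all 15 was 2236 to 2786 on WT chow, WT HFD and ob/ob chow, 5966 on ob/ob with NDGA and 11534 on WT HFD with NDGA. After normalization the sum was 3365 on ob/ob chow and 4116 with NDGA in ob/ob. The median difference of the 9 was 1.29 for NDGA in ob/ob and 2.94 for NDGA on HFD. Within the list, Ckm, the muscle creatine kinase, was highest for NDGA in ob/ob at 2.10, with 12.4 on ob/ob chow and 316 with NDGA. Not all markers ran with it: Myh1 was at -0.67 and Pvalb at -0.43. For NDGA on HFD, Ckm was again highest at 4.69, with 1501 on the array with NDGA, and Tnnt3 was lowest of the 9 at -0.76. In that comparison Slc25a3 was at -0.66 and Slc25a4, the muscle ADP/ATP carrier, at -0.34. The erythroid markers Alas2 and Slc4a1 read 2025 to 5196 and 381 to 700, and Epb42 did not exceed 8.21. Alas2 and Slc4a1 ran opposite ways, at -1.07 and 0.72 for NDGA on HFD and at 0.37 and -0.56 for NDGA in ob/ob. The carriers tied to heme synthesis in red cells, Slc25a37 and Slc25a38, differed by at most 0.45 in any comparison. The adipocyte markers Adipoq, Plin1 and Lep did not exceed 63.0, while Cfd read 19.2 to 2930. The germ cell markers summed to 213 to 290 over 6 genes. The part of these cells in the carrier values was not tested.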

How the data were processed

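Per the labels, total liver RNA was amplified, labelled with Cy5 and hybridised to Phalanx Mouse OneArray V1 slides. The values the authors deposited were taken as linear intensities because they run from below 0 to a pile-up above 65000. How they were scanned, background-corrected and scaled is not stated in the sources used here. The 5 arrays were quantile normalized over all 29922 probes, 50 was added and log2 was taken (python 3.11.15, numpy 2.4.6, pandas 2.3.3). Of the probes, 21020 carried 1 gene symbol, 0 several and 8902 none; symbols were updated through RefSeq GRCm38.p6 (3410 replaced, 52 kept), which changed none of the carriers. The number of arrays limits the precision, and no test was possible with 1 array per group.

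Named were carriers at least 2-fold apart in any comparison, the brightest 2 of each of 7 substrate groups and those of 10 fixed carriers that were members. The fixed carriers Slc25a5 and Slc25a42 were not found among the gene symbols of the array, and Slc25a47 lay under an older symbol. Other carriers are given to account for every member and were chosen after their values were seen. Members and lists were chosen with earlier results of these data known. In place of these, 7 alternatives were run: no normalization, median centring, loess (span 0.3, statsmodels 0.14.6), no brightness filter, a stricter one (75th percentile), all probes averaged, and an offset of 16; current symbols were added after seeing the data. Promoter windows came from RefSeq tables; no protein sequences were used. The steps were run on simulated arrays with known changes, independent noise and a uniformly brighter array. That run used only the main setting and does not test the choice of scaling, on which some results depend.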

Additional observations from a re-analysis of the deposited data

Results flagged for a closer look

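With NDGA, 3 carriers differed in opposite directions in the WT and ob/ob comparisons, each by more than the per-probe SD. The gap between the comparisons on the log2 scale was 2.35 for Slc25a3, 1.91 for Slc25a17 and 1.40 for Slc25a15, in each case lower with NDGA in WT on HFD and higher with NDGA in ob/ob on chow. With 1 array per group the difference was not tested, and genotype and base diet differ together between the comparisons. Of all 8319 expressed genes, 24.6% met the same criterion, against 13.0% of the 23 expressed carriers.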

How the results depend on the processing

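No replicates exist, so a value is said to hold when it moved by less than the SD per probe (for a single carrier) or that SD divided by the square root of the number of carriers (for a median relative to all expressed genes). Of 380 values of 19 named carriers under the alternatives, 341 held, 39 moved and 0 of those past 2-fold changed sign. Sign was checked only for values past 2-fold in the main setting, those of Slc25a3, Slc25a17, Slc25a20, Slc25a24 and Slc25a4. Smaller values did change sign, such as Slc25a23 for NDGA in ob/ob, at -0.84 and at 0.17 without normalization. Of the moved values, 22 came without normalization, 13 with median centring and 4 with an offset of 16. Those that held include all values with probes averaged. Averaging could change only Slc25a27, the 1 named carrier with more than 1 probe, so for the others that outcome was fixed. For NDGA in ob/ob, the count at least 2-fold higher was 3, and it was 11 without normalization, 8 with median centring and 6 after loess; Slc25a3, Slc25a17 and Slc25a20 were among them under each of these scalings. The count was 4 with an offset of 16, which adds Slc25a11, and 2 under the 75th percentile filter, which Slc25a20 does not pass. The median relative to all genes was 0.09, and it was 0.19 without normalization or median centred and 0.29 under a brightness filter at the 75th percentile. For ob/ob against WT, the 1 carrier at least 2-fold higher became 0 without normalization, with median centring and under the stricter 75th percentile filter, which Slc25a24 does not pass; the median was -0.13, and -0.20 without normalization or median centred. Without a brightness filter, the count for HFD was 1 in place of 0 (Slc25a4), and the median for NDGA on HFD was 0.040 in place of 0.12. Over all 8319 expressed genes, those at least 2-fold higher with NDGA in ob/ob numbered 544. They were 2622 without normalization, 1215 with median centring, 767 after loess and 692 with an offset of 16. Under the 75th percentile filter they were 272 of 4160. Those lower numbered 41, or 5 without normalization, 5 with median centring and 17 after loess. For ob/ob the split of higher and lower was 86 and 146, or 47 and 198 without normalization, and for NDGA on HFD 69 and 127, or 86 and 88. Averaging all probes, or using current symbols (added after seeing the data), changed no count of carriers past 2-fold. Averaging could not change the values of the carriers past 2-fold, which have 1 probe each. Current symbols bring the expressed carriers from 23 to 25. No paired analysis was possible because each group has 1 array. Dim probes limit what can be said of 14 of the 37 carriers.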
